A study of Mus musculus with 10 samples.

Results

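The desmosomal genes described here are the cadherins Dsc1, Dsc2, Dsc3, Dsg1a, Dsg2 and Dsg3 and the plaque proteins Dsp, Pkp1, Pkp3 and Jup. They were chosen by name, as the probe sets annotated to each of these 10 symbols alone. Of the 10 genes 9 were measured, by 20 of the 34945 probe sets that carry 1 gene symbol, which together stand for 18193 genes. Dsg3, the antigen of pemphigus vulgaris, is not analysed here because no probe set carried its symbol in the annotation used. mRNA levels were measured on Affymetrix mouse arrays in primary keratinocytes, the main cell of the epidermis, from newborn FVB mice labelled P1. The undifferentiated group has 2 arrays of keratinocytes kept in low-calcium medium. The differentiated group has 4 arrays of cells moved to medium with more calcium, which starts differentiation in culture, for 2 days. A further 2 arrays are of differentiated keratinocytes expressing A-C/EBP, a dominant negative protein that blocks DNA binding of the C/EBP transcription factors, and 2 are of differentiated keratinocytes treated with 5-AZA (5-azacytidine, an inhibitor of DNA methylation). A-C/EBP was under tetracycline control and was induced by withdrawing doxycycline before the move to more calcium. 5-AZA was added on the day of seeding, also before that move. An effect of either treatment on differentiation itself therefore cannot be told apart from one on differentiated cells. Whether the differentiated controls carried the transgene is not stated, nor whether replicates came from separate cultures, so the p-values speak of the spread among these arrays alone, and that spread may be technical.

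Desmosomes are the junctions that tie the keratin filaments of neighbouring keratinocytes together and give the epidermis its mechanical strength. Desmocollins and desmogleins are calcium-dependent cadherins that meet between the cells, plakoglobin (Jup) and the plakophilins (Pkp1, Pkp3) bind their tails inside the cell, and desmoplakin (Dsp) joins this plaque to keratin. In the epidermis Dsc3 and Dsg3 are strongest in the basal layer, Dsc1 and Dsg1 in the upper layers, and Dsc2 and Dsg2 are the forms found in simple epithelia as well. In the RefSeq gene order the cadherin genes lie side by side as Dsc3, Dsc2, Dsc1, Dsg1c, Dsg1a, Dsg1b, Dsg4, Dsg3 and Dsg2, with no other protein-coding gene between them, and the plaque genes lie elsewhere.

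All values below are levels or differences on the log2 scale of the authors' RMA normalization, averaged over the probe sets of a gene, and levels of different genes are not compared because each probe set has its own sensitivity. "Rose" and "fell" are kept for genes whose p in limma's moderated test, after Benjamini-Hochberg adjustment over all 18193 genes, was under 0.05. Over the 10 arrays the median probe set lay between 4.64 and 4.78. The highest value was 13.67 in differentiated replicate 2, and the other arrays reached 14.42 to 14.58. Of the 20 desmosomal probe sets 19 lay above the array median in all 10 arrays, and the exception was 1 of the 6 probe sets of Dsg2, which lay below it in all 10. All 8 keratinocyte markers examined, among them Krt5, Krt14 and Trp63, lay above the array median in all 10 arrays. The 6 melanocyte markers had a mean level of 8.12 to 8.94 over all arrays, with Tyrp1, Dct, Pmel, Mlana and Sox10 above the median in every array. In the 8 fibroblast markers the mean level was 5.40 to 5.90 in undifferentiated, 5.56 to 6.21 in differentiated, 5.21 to 5.72 in A-C/EBP and 5.98 to 6.43 in 5-AZA arrays. Of these markers Col1a1, Col1a2, Vim and Thy1 lay above the median in all 10 arrays. Lum lay below it throughout, and the others lay above it in some arrays.

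The first question was which desmosomal genes change when keratinocytes differentiate. Within the cadherins the desmocollins moved in opposite directions: Dsc2 rose and Dsc3 fell, while Dsc1, both measured desmogleins and all 4 plaque genes did not pass the test. Of the 9 genes 1 rose, 1 fell and 7 did not pass, where 6.64% of all genes rose and 9.14% fell. With 15.8% of all genes called either way, 2 calls among 9 genes do not set the desmosomal genes apart. An unadjusted p under 0.05 was reached by 3 of the 9 (Dsc2, Dsc3 and Dsg1a) and 25.8% of all genes. The methods give a difference over 0.5, without a test, as the threshold for mRNA changes upon differentiation. It was reached upward by 2 (Dsc2 and Dsg1a) and downward by 1 (Dsc3), where 7.23% and 8.87% of all genes did so. The median difference was 0.00018 over the 9 genes and −0.01 over all genes. In bulk RNA of this kind, fewer cells of a type and less RNA per cell cannot be told apart.

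**Figure D1:**
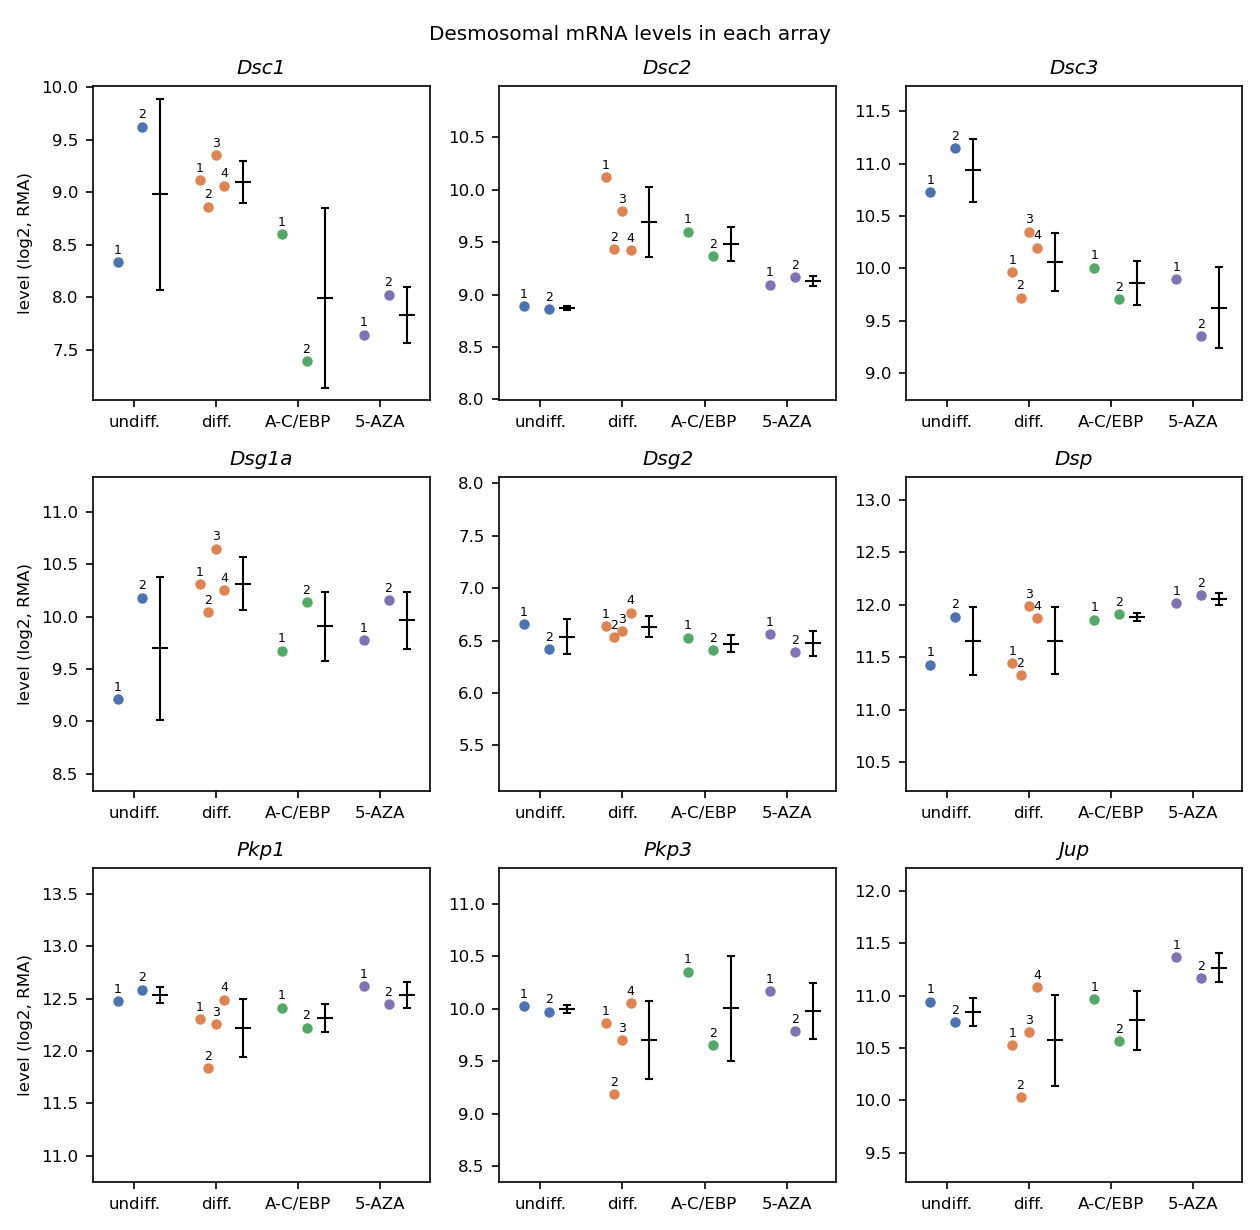
The log2 RMA level (y axis) of each of the 9 measured desmosomal genes (panels) in the undifferentiated (n = 2), differentiated (n = 4), A-C/EBP (n = 2) and 5-AZA (n = 2) arrays, where points are arrays and bars give the mean and SD. Dsc2 sits lowest and Dsc3 highest in the undifferentiated arrays, and the 2 undifferentiated arrays of Dsc1 lie 1.29 apart.

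Dsc2 had levels of 8.89 and 8.86 in the undifferentiated arrays and of 10.12, 9.43, 9.79 and 9.42 in the differentiated arrays. Every differentiated array lay above both undifferentiated ones. The difference was 0.82 (SE 0.18, 95% interval 0.41 to 1.23, adjusted p = 0.0128), a 1.76-fold higher level. Both of its probe sets rose, by 0.98 (SE 0.26, adjusted p = 0.0378) and 0.65 (SE 0.16, adjusted p = 0.03). The call rests on both undifferentiated arrays: without replicate 1 the difference was 0.83 (adjusted p = 0.0862) and without replicate 2 it was 0.80 (adjusted p = 0.0841). By the methods' t-test, run here per gene with the same adjustment, the adjusted p was 0.171.

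Dsc3 had levels of 10.73 and 11.15 in the undifferentiated arrays and of 9.96, 9.72, 10.35 and 10.20 in the differentiated arrays. Here every differentiated array lay below both undifferentiated ones. Dsc3 fell by 0.88 (SE 0.21, 95% interval −1.35 to −0.41, adjusted p = 0.0181), a 1.84-fold lower level. The probe set that passed fell by 0.93 (SE 0.25, adjusted p = 0.039), and the other had a difference of −0.83 (SE 0.27, adjusted p = 0.0961). Without undifferentiated replicate 2 the difference was −0.67 (adjusted p = 0.182), and by the methods' t-test the adjusted p was 0.143. Levels without overlap between the groups, as in Dsc2 and Dsc3, were found in 15.1% of all genes with higher and 19% with lower differentiated arrays.

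Because Dsc2 and Dsc3 changed in opposite directions, the level of Dsc2 minus that of Dsc3 was followed in each array. This description was chosen after the values were seen and was given no test. The level of Dsc2 minus that of Dsc3 was −1.84 and −2.29 in the undifferentiated arrays. In the differentiated arrays it was 0.16, −0.29, −0.56 and −0.78. The group means were −2.06 ± 0.32 (SD, n = 2) and −0.37 ± 0.40 (SD, n = 4), a change of 1.70. With A-C/EBP the values were −0.41 and −0.34 and with 5-AZA −0.81 and −0.19, and all of these but the −0.81 lay inside the range of the differentiated arrays. The size of the offset itself depends on the probes, so only its change between groups can be read.

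Markers of simple epithelia, which also use Dsc2 and Dsg2, moved with differentiation, while Dsg2 itself did not pass (0.09, adjusted p = 0.728). All 5 of Krt8, Krt18, Krt19, Krt7 and Epcam rose, with a median difference of 2.93, where 6.64% of all genes rose. Their mean level was 6.57 to 6.73 in the undifferentiated arrays, 9.23 to 10.12 in the differentiated, 9.90 to 10.39 in the A-C/EBP and 8.91 to 9.64 in the 5-AZA arrays. Upon differentiation 4 of the 8 keratinocyte markers fell, namely Krt5, Trp63, Itga6 and Cdh3, where 9.14% of all genes fell. The other 4 did not pass: Krt1 (−1.29, adjusted p = 0.067), Krt10 (−1.21, adjusted p = 0.0758) and, named outside the rule, Cdh1 (−0.23) and Krt14 (−0.05). The median of the 8 was −1.02, with a mean level of 10.05 to 10.54 in the undifferentiated and 9.18 to 9.52 in the differentiated arrays. The part of either set of markers in the changes of Dsc2 and Dsc3 was not tested.

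Dsc1, the desmocollin of the upper epidermis, had levels of 8.33 and 9.63 in the undifferentiated arrays, which enclose the differentiated values of 9.12, 8.86, 9.35 and 9.06. The gap of 1.29 between the undifferentiated replicates is exceeded by 0.214% of all genes. The difference was 0.12 (SE 0.37, 95% interval −0.72 to 0.96, adjusted p = 0.923), and it was −0.53 without undifferentiated replicate 1 and 0.77 without replicate 2.

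Dsg1a, the desmoglein of the upper epidermis and 1 of the mouse genes for desmoglein 1, the target of pemphigus foliaceus, gave 9.21 and 10.18 in the undifferentiated and 10.31, 10.04, 10.65 and 10.25 in the differentiated arrays. Undifferentiated replicate 1 lay far below the differentiated arrays and replicate 2 within them. The difference was 0.62 (SE 0.26, 95% interval 0.03 to 1.21, adjusted p = 0.172), and it was 0.13 without replicate 1 and 1.10 without replicate 2, where it passed (adjusted p = 0.0257). Dsg1a was read by 1 probe set, and the mouse has the close copies Dsg1b and Dsg1c, and whether its probes also read these copies was not tested. Dsg1b itself, named outside the rule for list genes, had a difference of −0.53 (SE 0.28, adjusted p = 0.293). As in Dsc1 and Dsg1a, undifferentiated replicate 2 lay above replicate 1 in Dsg1b (8.73 against 7.50). The same was seen in the keratins Krt1 (10.98 against 9.18) and Krt10 (9.96 against 8.33), but not in Pkp2 (5.17 against 5.31). The gap between these arrays is thus not confined to Dsc1 and Dsg1a, and its cause was not tested. Dsg2, the widely expressed desmoglein, had levels of 6.66 and 6.42 in the undifferentiated arrays and 6.53 to 6.77 in the differentiated arrays, a difference of 0.09 (SE 0.11, adjusted p = 0.728). Its 6 probe sets gave differences from −0.11 to 0.35.

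Plaque genes had overlapping levels between undifferentiated and differentiated keratinocytes. Dsp had levels of 11.43 and 11.89 against 11.44, 11.33, 11.99 and 11.87, a difference of 0.00018 with a 95% interval from −0.44 to 0.44. Pkp1, the plakophilin of stratified epithelia, had levels of 12.48 and 12.58 against 12.30, 11.83, 12.25 and 12.49, a difference of −0.31 (SE 0.16, 95% interval −0.67 to 0.05, adjusted p = 0.284). Pkp3 had levels of 10.02 and 9.97 against 9.86, 9.19, 9.70 and 10.05, a difference of −0.30 (SE 0.25, 95% interval −0.85 to 0.26). Jup had levels of 10.94 and 10.75 against 10.53, 10.03, 10.65 and 11.08, a difference of −0.27 (SE 0.24, 95% interval −0.81 to 0.26). Differentiated replicate 2, the array with the lowest maximum, held the lowest of the 4 differentiated levels in 8 of the 9 desmosomal genes, all but Dsc2, and in 50.8% of all genes. The intervals of the 4 genes together reach from −0.85 to 0.44, so a missed threshold does not show that these genes stayed level.

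**Figure D2:**
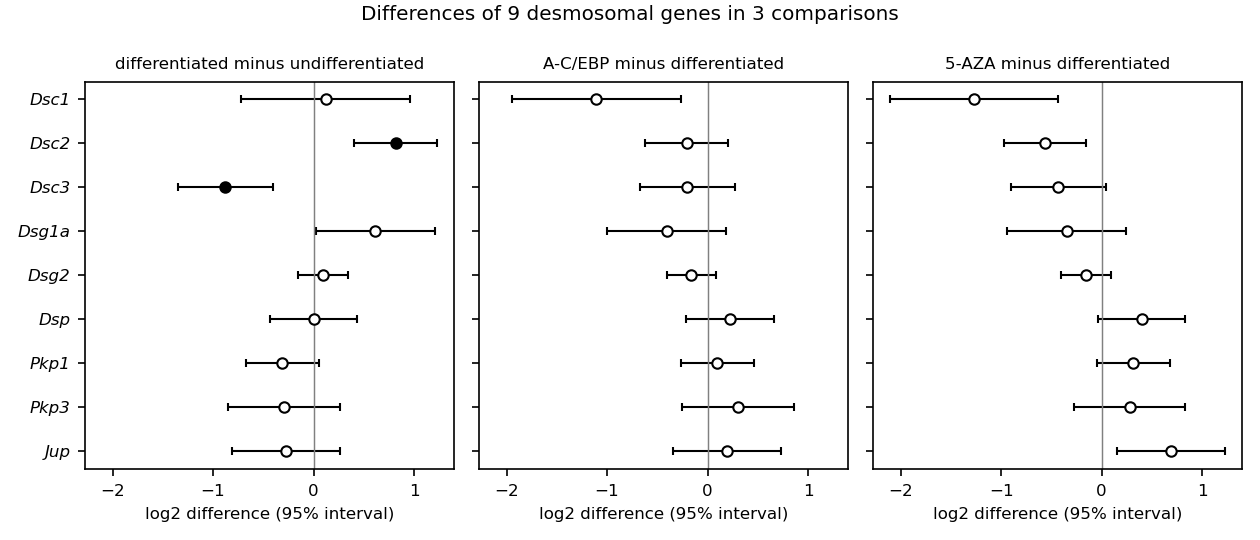
Differences in log2 level (x axis, with 95% intervals) of the 9 desmosomal genes (rows) between differentiated and undifferentiated, A-C/EBP and differentiated, and 5-AZA and differentiated keratinocytes, where filled points passed the test. Only Dsc2 (0.82) and Dsc3 (−0.88) upon differentiation are filled, and in both treatment panels the 5 cadherins lie below 0 and the 4 plaque genes above it.

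The next question was whether blocking C/EBP changes these genes in differentiated keratinocytes. No desmosomal gene passed limma's test with A-C/EBP: 0 rose and 0 fell, where 1.49% and 0.572% of all genes did (2.06% either way). An unadjusted p under 0.05 was reached by 1 gene (Dsc1), where 13.6% of all genes reached it, and by 0 in the methods' t-test, where 10.3% of all genes reached it. With adjustment the methods' t-test called 0 among all genes. A difference over 0.5 was reached upward by 0 and downward by 1 (Dsc1), where 3.71% and 3.03% of all genes did so. The median difference was −0.16 over the 9 genes and 0.01 over all genes. The A-C/EBP arrays lay outside the differentiated ones for 2 of the 9 genes, Dsc1 and Dsg2, both lower, where 8.81% of all genes lay lower in this way and 12.6% higher. For Dsg2 this rests on 6.527 in A-C/EBP replicate 1 against 6.531 in differentiated replicate 2. In each single probe set of Dsg2 the arrays overlapped.

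Dsc1 had levels of 8.60 and 7.39 with A-C/EBP, both below the lowest differentiated array at 8.86. The difference was −1.11 (SE 0.37, 95% interval −1.94 to −0.27, unadjusted p = 0.0148, adjusted p = 0.201). Its size depends on the array: it was −1.71 without A-C/EBP replicate 1 and −0.50 without replicate 2. Its 2 probe sets gave −1.42 and −0.79. Dsg2 had levels of 6.53 and 6.41, with a difference of −0.16 (SE 0.11, adjusted p = 0.624).

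In the other cadherins the A-C/EBP arrays overlapped the differentiated ones. Dsc2 had levels of 9.60 and 9.37 (difference −0.21, 95% interval −0.62 to 0.20), and its probe sets split into −0.42 and 0.0038. Dsc3 had levels of 10.01 and 9.71 (difference −0.20, 95% interval −0.67 to 0.27), and its probe sets split into −0.47 and 0.070. Dsg1a had levels of 9.68 and 10.14 (difference −0.41, 95% interval −0.996 to 0.18). Among plaque genes the differences were 0.23 for Dsp, with levels of 11.86 and 11.91, 0.10 for Pkp1, with 12.41 and 12.22, 0.30 for Pkp3, with 10.35 and 9.65, and 0.19 for Jup, with 10.96 and 10.56. Every one of these overlapped the differentiated arrays.

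5-AZA was compared with the same 4 differentiated arrays to ask whether inhibition of DNA methylation changes desmosomal genes. Again 0 rose and 0 fell by limma, where 0.17% and 0.115% of all genes did (0.286% either way). Before adjustment 3 of the 9 genes (Dsc1, Dsc2 and Jup) and 9.1% of all genes had a p under 0.05. The methods' t-test called 1 gene (Dsc1) without adjustment, where it called 6.63% of all genes. With adjustment it called 0, as it did among all genes. A difference over 0.5 was reached upward by 1 (Jup) and downward by 2 (Dsc1 and Dsc2), where 1.89% and 2.09% of all genes did so. The median difference was −0.15 over the 9 genes and 0.04 over all genes. The 5-AZA arrays lay below all differentiated arrays for Dsc1 and Dsc2 and above them for Dsp and Jup, that is 2 of 9 genes each way, where 5.15% of all genes lay below and 11.2% above.

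Dsc1 had levels of 7.64 and 8.02 with 5-AZA, both under every differentiated array. The difference was −1.27 (SE 0.37, 95% interval −2.10 to −0.43, unadjusted p = 0.00713, adjusted p = 0.293), a 2.41-fold lower level, and the probe sets gave −1.40 and −1.13. In a fit of the 2 conditions alone it passed (adjusted p = 0.0396). Dsc2 had levels of 9.09 and 9.17, with a difference of −0.56 (SE 0.18, 95% interval −0.97 to −0.15, adjusted p = 0.359) and probe sets at −0.60 and −0.53. Dsc1, Dsc2 and Dsc3 each had lower means with 5-AZA in both of their probe sets. Dsc3 had levels of 9.90 and 9.36, a difference of −0.43 (SE 0.21, adjusted p = 0.605), with probe sets at −0.68 and −0.18. Dsg1a had levels of 9.77 and 10.16 (difference −0.35, 95% interval −0.94 to 0.24) and Dsg2 levels of 6.56 and 6.39 (difference −0.15, 95% interval −0.40 to 0.09).

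Jup had levels of 11.36 and 11.17 with 5-AZA, both above the highest differentiated array at 11.08. The difference was 0.69 (SE 0.24, 95% interval 0.16 to 1.23, unadjusted p = 0.0165, adjusted p = 0.393), and it was 0.51 without differentiated replicate 2. Jup was read by 1 probe set, of a type that can match several transcripts. Dsp had levels of 12.01 and 12.09 against a highest differentiated level of 11.99, a difference of 0.40 (SE 0.20, 95% interval −0.04 to 0.83, adjusted p = 0.605), with probe sets at 0.42, 0.53 and 0.24. Pkp1 had levels of 12.62 and 12.45 (difference 0.31, 95% interval −0.05 to 0.68) and Pkp3 levels of 10.17 and 9.79 (difference 0.28, 95% interval −0.28 to 0.83).

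**Figure D3:**
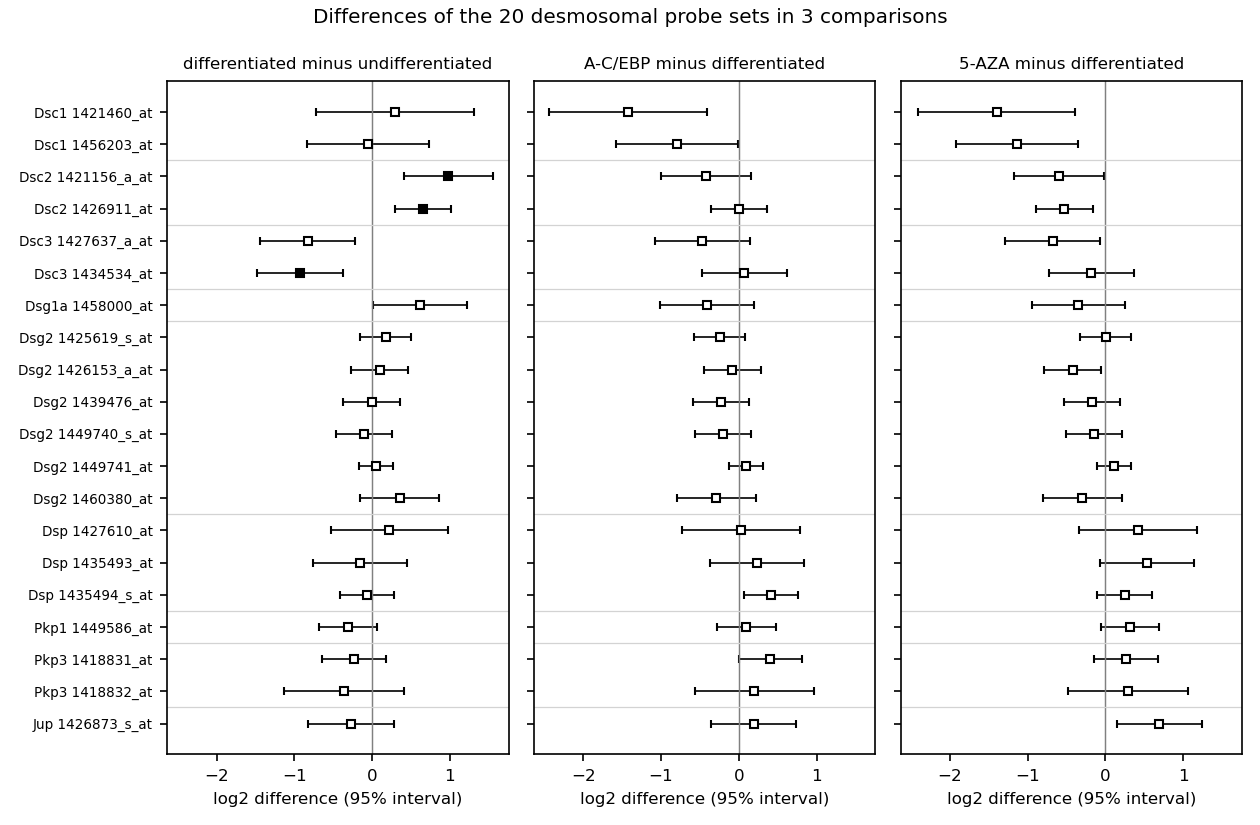
Differences in log2 level (x axis, with 95% intervals) of each of the 20 desmosomal probe sets (rows) in the same 3 comparisons, where filled points passed the test over all probe sets. Both probe sets of Dsc2 and 1 of Dsc3 are filled upon differentiation, and none is with A-C/EBP or 5-AZA.

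Read probe set by probe set, 2 of 20 rose and 1 fell upon differentiation, where 4.36% and 6.28% of all 45037 probe sets did. With A-C/EBP limma called 0 of 20 (0.999% of all probe sets), and 3 had an unadjusted p under 0.05, where 11.1% of all probe sets did. With 5-AZA it called 0 of 20 (0.0488% of all probe sets), and 7 had an unadjusted p under 0.05, where 7.05% of all probe sets did. The 7 belong to 5 genes, and probe sets of 1 gene are not independent. The methods' t-test was not run on probe sets.

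In both treatments the 5 cadherins had differences below 0 and the 4 plaque genes above 0. The treatments share the 4 differentiated arrays, so the recurrence is not independent, and none of these differences passed the test. For A-C/EBP the sign depends on single arrays in the plaque genes. Pkp1 had −0.031 without differentiated replicate 2, and Pkp3 had −0.048 and Jup −0.00885 without A-C/EBP replicate 1. In the cadherins Dsc2 and Dsc3 it depends on the probe set, as the brighter one of each lay above 0 (0.0038 and 0.070). Set directly against each other, A-C/EBP and 5-AZA differed in 0 of 9 genes by limma, with 0 at an unadjusted p under 0.05, where 3.19% of all genes passed and 15.4% had such an unadjusted p.

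Ordered by their means, the 4 conditions gave no common order over the genes. The highest condition was differentiated in 4 genes, 5-AZA in 3 and undifferentiated and A-C/EBP in 1 each. The lowest was undifferentiated in 3, differentiated in 3, 5-AZA in 2 and A-C/EBP in 1. Among neighbours in these orders only undifferentiated over differentiated in Dsc3 passed the test, which does not show that the others were equal. In Dsc1 undifferentiated lay 0.99 above A-C/EBP (SE 0.43, unadjusted p = 0.0462, adjusted p = 0.184). The arrays overlapped there, with undifferentiated replicate 1 (8.33) below A-C/EBP replicate 1 (8.60). Dsc3 also fell against the undifferentiated arrays with A-C/EBP (−1.08, SE 0.24, adjusted p = 0.0133) and with 5-AZA (−1.31, SE 0.24, adjusted p = 0.00496), where 8.01% and 8.72% of all genes fell. The first call was lost without undifferentiated replicate 2 (−0.87, adjusted p = 0.105) or A-C/EBP replicate 2 (−0.93, adjusted p = 0.0944), and the second held without any 1 of its 4 arrays (adjusted p at most 0.0472). Dsc2 against the same arrays had 0.61 with A-C/EBP (adjusted p = 0.0898) and 0.25 with 5-AZA (adjusted p = 0.534). Neither value passed, and neither did the differences of the treated from the differentiated arrays.

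Promoter sequence was available here for 2 of the 10 genes, Dsp and Jup, and for none of the cadherins. It is shown because the compared treatments act on C/EBP binding and on DNA methylation. No methylation was read here, and a link between these bases and the mRNA levels was not tested. The bases come from RefSeq (mouse GRCm38.p6) and are written 5′ to 3′ on the gene's strand, with matches to the GC box GGGCGG on either strand in capitals. Dsp is the 250 bases before the annotated start, chr13:38151044-38151293, plus strand. Jup is the 201 bases at chr11:100397840-100398040, minus strand, the part of its 250-base window that holds no annotated transcript.

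Dsp: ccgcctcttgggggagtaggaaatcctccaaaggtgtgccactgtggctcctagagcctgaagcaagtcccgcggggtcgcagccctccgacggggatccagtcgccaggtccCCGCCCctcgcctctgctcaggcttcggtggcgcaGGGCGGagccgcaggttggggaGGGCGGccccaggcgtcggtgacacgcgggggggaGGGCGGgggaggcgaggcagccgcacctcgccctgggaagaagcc

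Jup: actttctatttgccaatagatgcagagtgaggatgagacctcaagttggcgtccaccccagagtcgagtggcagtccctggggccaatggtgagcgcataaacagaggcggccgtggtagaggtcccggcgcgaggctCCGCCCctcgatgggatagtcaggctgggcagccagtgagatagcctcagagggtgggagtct

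The Dsp window held 22 CpG dinucleotides, the bases at which DNA is methylated, and was 72.4% G and C. Of 32851 mouse promoter windows of this length 85.2% held fewer CpG. The whole Jup window held 13 CpG at 62.0% G and C, and 68.5% of windows held fewer. The GC box matched 4 times in the Dsp window and 2 times in the whole Jup window, of which 1 lies in the printed bases and the other in the part left out, and 32.7% of windows hold it. None of the C/EBP motif TTGCNNAA (in 9.56% of windows), the AP-1 motif TGANTCA (6.75%) or the CRE motif TGACGTCA (1.55%) matched in either window on either strand, which says only that these letters are not in these bases.

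Other genes of the desmosome and of its cornified form were read from a list of 11, of which 9 were measured. Upon differentiation 3 rose, 2 fell and 4 did not pass, with a median of 0.23, where 6.64% of all genes rose and 9.14% fell. Ppl, the plakin periplakin of the desmosome and cornified envelope, rose by 1.26 (SE 0.13, adjusted p = 0.000178), and Cdsn, corneodesmosin of the cornified desmosome, rose by 1.48 (SE 0.22, adjusted p = 0.00137). Pkp2, the plakophilin of simple epithelia and heart, rose from 5.31 and 5.17 to between 5.68 and 5.95, a difference of 0.61 (SE 0.12, adjusted p = 0.00705), and lost its call without undifferentiated replicate 2 (0.54, adjusted p = 0.0778). Pkp4, a relative of the plakophilins that binds both desmosomal and classical cadherins, fell from 8.64 and 8.57 to between 7.45 and 7.80, by 0.98 (SE 0.15, adjusted p = 0.0014). Pnn, which was described at desmosomes and is also a nuclear splicing protein, fell by 0.97 (SE 0.20, adjusted p = 0.00823), and without undifferentiated replicate 1 the difference was −0.79 (adjusted p = 0.111). Pkp2 and Pkp4 therefore passed the test in opposite directions, where Pkp1 and Pkp3 did not pass.

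With A-C/EBP 2 of these 9 genes rose, 0 fell and 7 did not pass. Over all 9 genes the median was 0.35, and 6 had an unadjusted p under 0.05, the 2 that rose among them. Of all genes 1.49% rose, 0.572% fell and 13.6% had an unadjusted p under 0.05. Ppl rose by 1.12 (SE 0.13, adjusted p = 0.00369), from 10.36 to 10.65 in the differentiated arrays to 11.57 and 11.60. Cdsn rose by 1.31 (SE 0.22, adjusted p = 0.0186), to 13.13 and 13.10 from 11.37 to 12.18, with an adjusted p of 0.0752 without A-C/EBP replicate 1 and of 0.156 without replicate 2. Evpl, the plakin envoplakin that pairs with periplakin, had 0.75 (adjusted p = 0.0619). With 5-AZA limma called 0 of the 9, and 2 had an unadjusted p under 0.05, Evpl with 0.66 (adjusted p = 0.226) among them. Of all genes 0.286% were called and 9.1% had such an unadjusted p.

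**Figure D4:**
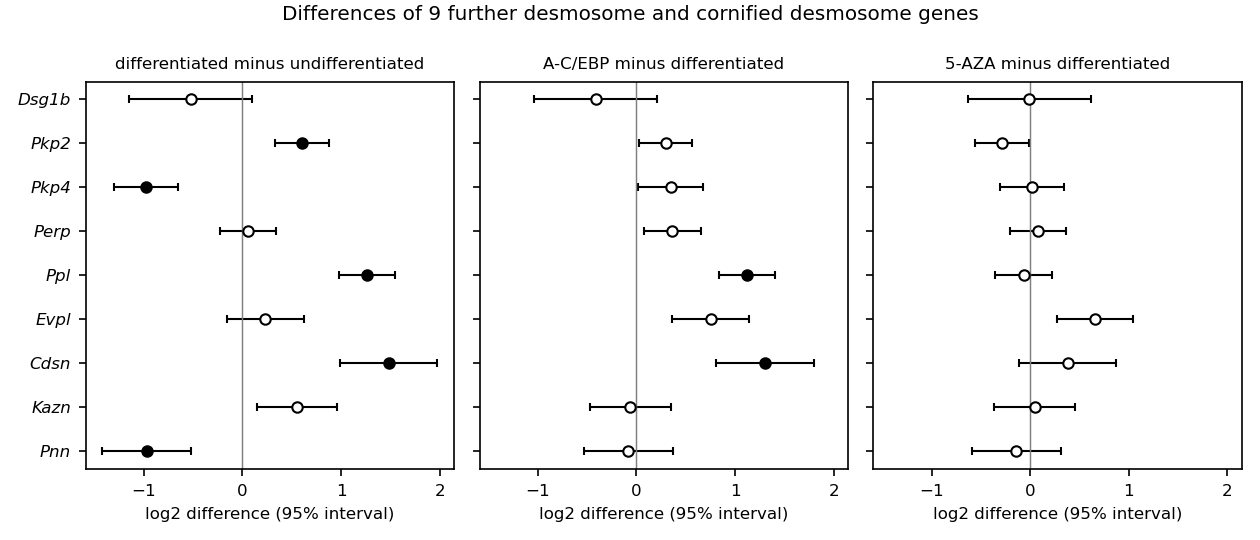
Differences in log2 level (x axis, with 95% intervals) of 9 further genes of the desmosome and cornified desmosome (rows) in the same 3 comparisons, where filled points passed the test. Ppl and Cdsn are filled both upon differentiation (1.26 and 1.48) and with A-C/EBP (1.12 and 1.31), and no gene is filled with 5-AZA.

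Adherens junctions, the actin-linked junctions beside desmosomes, were read from 9 genes. For the counts upon differentiation given here and for the keratins below, 6.64% of all genes rose and 9.14% fell. Nectin4, a nectin, rose upon differentiation by 1.08 (SE 0.24, adjusted p = 0.0111), with adjusted p of 0.0722 and 0.0822 without undifferentiated replicate 1 or 2, Cdh3 (P-cadherin of basal cells) fell by 0.82 (SE 0.13, adjusted p = 0.00173), and 7 did not pass. With A-C/EBP and with 5-AZA 0 of the 9 passed limma's test, with 2 and 0 at an unadjusted p under 0.05. Of all genes 2.06% and 0.286% passed, and 13.6% and 9.1% had such an unadjusted p. Among 11 epidermal keratins, the filaments that desmosomes anchor, 2 fell upon differentiation and 9 did not pass. Krt16, a keratin of wounded and hyperproliferative epidermis, fell by 0.90 (SE 0.15, adjusted p = 0.00263) and the basal keratin Krt5 by 0.75 (SE 0.20, adjusted p = 0.0291). The call of Krt5 was lost after median centring (adjusted p = 0.0553) and without undifferentiated replicate 1 (adjusted p = 0.156) or 2 (adjusted p = 0.139) or differentiated replicate 2 (adjusted p = 0.0641) or 3 (adjusted p = 0.0579). With A-C/EBP 3 rose, Krt15 by 1.85 (adjusted p = 0.00483), Krt77 by 2.61 (adjusted p = 0.0353, and a difference of 1.44 without A-C/EBP replicate 2) and Krt16 by 0.71 (adjusted p = 0.0455, and a difference of 0.52 without that replicate), and 8 did not pass. Of all genes 1.49% rose with A-C/EBP. Krt6b, a keratin of activated epidermis, had −1.85 (SE 0.42, adjusted p = 0.0563), with levels of 11.87 and 10.02 below all differentiated arrays. Krt1 had 1.79 (SE 0.42, adjusted p = 0.0643), with levels of 10.21 and 10.95 above all differentiated arrays. The calls of Krt77 and Krt16 were also lost without any 1 of the 4 differentiated arrays (adjusted p up to 0.0882 and 0.0872). With 5-AZA 0 of 11 passed and 2 had an unadjusted p under 0.05.

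Of 9 measured genes that shed desmosomes or set their adhesion, 2 rose and 1 fell upon differentiation, where 6.64% and 9.14% of all genes did. The protease Klk7, which cleaves corneodesmosin, rose by 1.95 (SE 0.23, adjusted p = 0.000367) and Spink5, which encodes the inhibitor of such proteases, rose by 1.05 (SE 0.15, adjusted p = 0.00124). Atp2a2, the calcium pump mutated in Darier disease, fell by 0.44 (SE 0.10, adjusted p = 0.0141), with adjusted p of 0.0526 and 0.14 without undifferentiated replicate 1 or 2. With A-C/EBP and with 5-AZA 0 of the 9 passed, and 0 had an unadjusted p under 0.05. Of all genes 2.06% and 0.286% passed, and 13.6% and 9.1% had such an unadjusted p. Of 8 regulators of epidermal and desmosomal gene expression 2 fell upon differentiation, Trp63 (p63) by 1.42 (SE 0.24, adjusted p = 0.00256) and Hoxc13, a regulator of hair and nail keratins, by 1.04 (SE 0.18, adjusted p = 0.00324; adjusted p = 0.0534 without undifferentiated replicate 1). With A-C/EBP 0 of the 8 passed and 1 had an unadjusted p under 0.05, and with 5-AZA 0 passed and 2 had one.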

How the data were processed

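mRNA of 10 keratinocyte samples was measured on Affymetrix mouse arrays, and other assays of the study are not analysed here. The authors made the deposited log2 values in Affymetrix Expression Console by RMA (no version given), a method that corrects background, quantile-normalizes the arrays to each other and summarizes each probe set, and array medians and maxima still differed somewhat. No second normalization was applied. Of 45101 probe sets 64 are controls, 932 carry several symbols and 9160 none, and those with 1 symbol were averaged per gene. RefSeq gene numbers matched 34741 of them and changed 0 symbols.

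All 10 arrays entered 1 fit in limma 3.58.1 (R 4.3.3) with a mean per condition, 6 residual degrees of freedom and a moderated two-sided test, tested on simulated data first. The methods' t-test is a two-sided test of the same values. The methods name such a test for comparing 2 samples, and its use per gene and its adjustment were added here. For mRNA changes upon differentiation the methods give a difference over 0.5 as the threshold. Precision is limited by how few arrays there are. Replicate numbers follow the titles, as both A-C/EBP arrays carry the same number in another label.

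The members, lists and tests were chosen with earlier results of these data known. All 10 members are named, and from each list at most 6 genes by smallest adjusted p, with exceptions marked. Likeness is the root-mean-square distance between centred condition means, among genes whose mean level is above the median. Alternatives were other normalizations and filters, the brightest probe set, a replicate block, other tests and omission of each array.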

Additional observations from a re-analysis of the deposited data

How the results depend on the processing

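Upon differentiation the number of desmosomal genes that rose was 1, and 0 by the methods' t-test after adjustment (2.07% of all genes), 2 by a difference over 0.5 and 0 to 1 when 1 array was left out. Without undifferentiated replicate 2 the call of Dsc2 was lost and that of Dsg1a gained. The number that fell was 1, and 0 by the adjusted t-test (2.68% of all genes) and 0 to 1 when 1 array was left out (0 without undifferentiated replicate 2). A difference over 0.5 gave 1 lower gene with A-C/EBP, and 1 higher and 2 lower with 5-AZA, where 1 also fell in a fit of the 2 conditions alone (0.055% of all genes) and 1 by the unadjusted t-test (2.12%). That fit gave 2 falling probe sets upon differentiation in place of 1 (6.37% of all probe sets). With the brightest probe set per gene 0 neighbouring conditions differed in place of 1.

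With the replicate number as a block, 2 genes fell upon differentiation (11.2% of all genes), Jup (−0.57, adjusted p = 0.013) beside Dsc3, and 1 rose with 5-AZA (1.17% of all genes, against 0.17% without the block), Jup (0.99, adjusted p = 0.0114). Under the block 3 probe sets fell upon differentiation (7.6% of all) and 2 rose with 5-AZA (0.511%), and 2 neighbouring conditions differed. Samples with the same number deviated together at r = 0.0931 to 0.43 over 9 distinct values, since both numbers give the same r between groups of 2 arrays, but a comparison holds only 2 such pairs and no label says what a number marks, so the pairing is not established.

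Differences that changed sign had not passed the test. Upon differentiation these were Dsc1 (−0.054 with the brightest probe set, and −0.53 to 0.77 when 1 array was left out), Dsg2 (−0.0073 with the brightest probe set, and −0.026 to 0.21 when 1 array was left out) and Dsp (−0.066 with the brightest probe set, −0.27 with the block, and −0.23 to 0.23 when 1 array was left out). With A-C/EBP they were Dsc2 (0.0038) and Dsc3 (0.070) with the brightest probe set, Dsc3 with the block (0.016), and, when 1 array was left out, Pkp1 (−0.031 to 0.19), Pkp3 (−0.048 to 0.65) and Jup (−0.00885 to 0.39). The causes were not tested. The fall of Dsc3 with A-C/EBP against undifferentiated cells, put under the same alternatives after the data were seen, was −0.86 (adjusted p = 0.062) with the brightest probe set. By the methods' t-test it did not pass after adjustment, and neither did that with 5-AZA. Over 18 settings the difference of Dsc2 upon differentiation ranged from 0.65 to 0.91 and that of Dsc3 from −1.10 to −0.67. Omitting probe sets that match several transcripts left 8 of the 9 genes, without Jup.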

Other observations

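Genes whose pattern over the 4 conditions was nearest to that of the desmocollins that passed the test are given as a description. Distances are on the log2 scale, between condition means centred on each gene's own mean, among 9087 genes. Nearest to Dsc2 were Haus7 (0.0485), Errfi1 (0.0617) and 1810019D21Rik (0.0692). Nearest to Dsc3 were Ddx10 (0.0301), Lrrc40 (0.0318) and Rbmxl1 (0.0341), all highest in undifferentiated keratinocytes and lowest with 5-AZA.

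Several desmosomal genes differed widely between replicates of 1 condition. The 2 A-C/EBP arrays lay 1.21 apart in Dsc1, and 0.533% of all genes had a larger gap. The undifferentiated arrays lay 0.97 apart in Dsg1a (0.627% larger), and the 4 differentiated arrays spanned 1.05 in Jup (1.59% larger) and 0.87 in Pkp3 (3.53% larger).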
